A study of Mus musculus with 2 samples.

Results

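Vascular leptomeningeal cells are the fibroblast-like cells of the leptomeninges, the pia and the arachnoid, and of the sheaths around the larger blood vessels of the brain. Here nuclei were selected under that name by a gate on 6 genes in 2 libraries of single nuclei from entorhinal cortex. A nucleus was a member where the unique molecular identifiers (UMIs, 1 for each captured RNA molecule) of Slc6a13, Slc47a1, Ranbp3l, Dcn, Bnc2 and Col1a2 summed to at least 5 and to at least 0.2% of its UMIs, with at least 2 of the genes found and at most 3 UMIs of the neuronal gene Slc17a7. The gate took 180 of 12918 barcodes, 91 of 6745 in vehicle and 89 of 6173 in OLE.

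Both libraries came from male APP/PS1 mice, transgenic animals that deposit amyloid in the brain, at 18 months of age. Mice of the OLE library drank C18:1-Leu (N-oleoyl-leucine, OLE) at 25 mg/kg/day from 15 months of age, and mice of the vehicle library DMSO in the same alkaline water. All animals carried the APP/PS1 genotype, so neither library gives a level without it. Each library pooled tissue from 5 mice before sequencing, and their nuclei cannot be assigned to animals. With 1 library per condition no difference between OLE and vehicle was tested. All intervals given are exact 95% intervals and cover counting error only.

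Meningeal fibroblasts lay down the collagens, laminins and proteoglycans that form the pial surface, and they carry transporters that exchange amino acids, organic anions and sulfate with the cerebrospinal fluid. The outer arachnoid holds a sealed layer, the arachnoid barrier, whose cells express E-cadherin, claudin 11 and drug efflux pumps. The leptomeninges arise from neural crest and mesoderm, and their fibroblasts keep the transcription factors of that origin.

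The gated nuclei had a median of 6028 UMIs in vehicle (1404 to 56041) and 5443 in OLE (825 to 50738), and median gene numbers of 2796 and 2681. They held 688359 and 670259 UMIs in all, of 70845739 and 69485537 in the libraries. The deepest member gave 8.14% of the members' UMIs in vehicle and 7.57% in OLE. Mitochondrial UMIs had a median of 2.26% in vehicle and 2.77% in OLE, and 21 and 31 members had 5% or more. The 2 libraries shared 14 cell barcodes, of which 1 was a member in both; in vehicle this was the deepest member, and in OLE a nucleus with 1084 UMIs.

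All 5 markers of the label (Slc6a13, Slc47a1, Ranbp3l, Dcn and Bnc2) were found in both libraries, but none in every member. Dcn, a marker of fibroblasts in general, was found in 36.3% of members in vehicle and 56.2% in OLE. Markers of other cells were low but not absent. A list of 12 neuronal genes took 0.129% of the members' UMIs in vehicle and 0.0967% in OLE, against 0.967% and 0.943% in all other barcodes. Endothelial genes (10) took 0.0510% and 0.0692%, and none of the 10 was at 0. Of their UMIs, 135 of 351 in vehicle and 206 of 464 in OLE were of the efflux pump Abcb1a. That gene is counted below among those of the arachnoid barrier as well. Mural genes (10) took 0.0434% and 0.0518%, with Higd1b at 0. Astrocyte genes (10) took 0.312% and 0.240%, above the 0.0880% and 0.0954% in the other barcodes. By gates on their own genes, 6 members in vehicle and 9 in OLE also passed as endothelial or mural, and 7 and 1 as astrocytes. Choroid plexus genes (7) took 0.00697% and 0.00716%, above the 0.00274% and 0.000449% in the other barcodes, with Folr1 and Otx2 at 0 in all members. Ependymal genes (6) took 0.00305% and 0.00224%, against 0.00468% and 0.00515%, with Foxj1, Tmem212 and Ccdc153 at 0.

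The 6 gate genes chose the members, so their levels are a description. In vehicle and OLE, Bnc2, a zinc finger factor, had 1747 and 1445 UMIs, and Ranbp3l had 1110 and 768. The multidrug and toxin extruder Slc47a1 had 584 and 582, and the GABA and taurine transporter Slc6a13 had 342 and 249. Type I collagen Col1a2 had 203 and 319, and the proteoglycan decorin (Dcn) 93 and 157. Col1a2 was found in the most members, 70 and 69, and no gate gene was found in all of them. On the GRCm38 genome (GENCODE vM21), Slc47a1 lies on the minus strand of chromosome 11 (61343401 to 61378345) and Slc6a13 on the plus strand of chromosome 6 (121300227 to 121337733).

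Few members sat near the UMI limit and more near the limit on the share. Gate UMIs of 5 to 9 were seen in 5 members in vehicle and 8 in OLE, and 1 of these in OLE had exactly 5. The lowest member had 0.203% of its UMIs in the gate genes in vehicle and 0.204% in OLE, the median 0.558% and 0.538%. Under 0.4% were 23 members in vehicle and 22 in OLE. Just outside, 1 nucleus in each library met the other criteria at 4 UMIs, and 21 in vehicle and 17 in OLE had 5 UMIs or more but under 0.2%, the highest of them at 0.195% and 0.180%. The Slc17a7 limit removed none. In glutamatergic nuclei, at median depths of 24732 and 20996 UMIs, a UMI of Slc47a1 was found in 1.42% and 2.62%, of Slc6a13 in 1.23% and 1.91%, and of Dcn in 13.4% and 15.3%.

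By 2 of the gate genes the members fell into 2 kinds that hardly met. Slc6a13 was found in 90 members and Slc47a1 in 80, but both in only 4. Of the other gate genes, Ranbp3l went with Slc6a13 (85 members with both, against 5 with Slc47a1), and Bnc2 was found with Slc47a1 in 79 members and with Slc6a13 in 42. The gate chose members by the sum of these genes, which can by itself set them apart among members. These counts are therefore a description and no test of 2 kinds. Nuclei with Slc47a1 and no Slc6a13 numbered 39 in vehicle (42.9% of members, interval 32.5 to 53.7) and 37 in OLE (41.6%, 31.2 to 52.5). Nuclei with Slc6a13 and no Slc47a1 numbered 45 (49.5%, 38.8 to 60.1) and 41 (46.1%, 35.4 to 57.0). Neither gene was found in 4 and 10, and both in 3 and 1. The deepest member in vehicle was 1 of these 3, with 20 UMIs of Slc47a1 and 36 of Slc6a13.

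**Figure D1:**
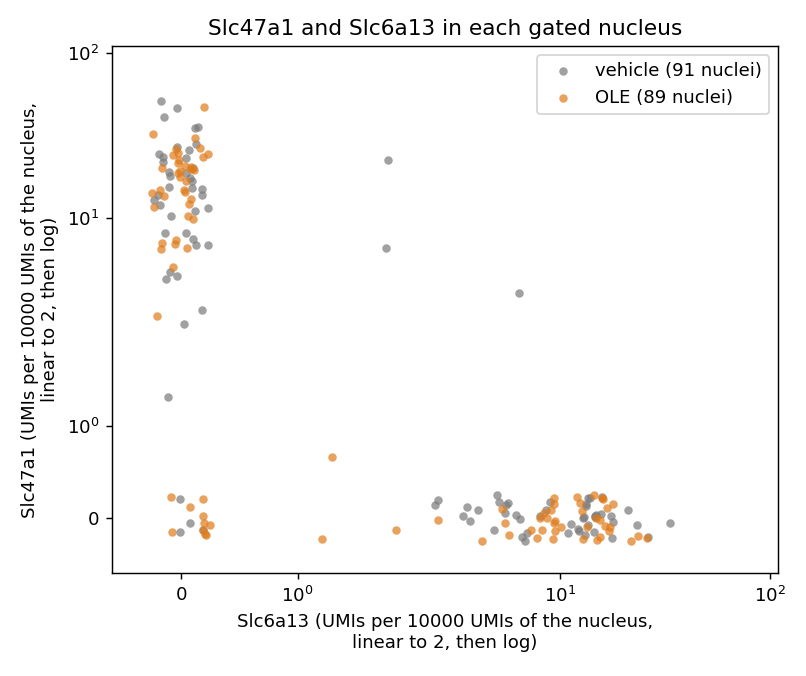
Each point is 1 gated nucleus, placed by its Slc6a13 (horizontal) and Slc47a1 (vertical) UMIs per 10000 of its UMIs, with a small jitter and axes that are linear to 2 and logarithmic above, grey for vehicle and orange for OLE. Points line both axes, 4 nuclei lie between them, and the 14 nuclei with neither gene sit near the origin.

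This split was drawn after the counts had been seen and by genes of the gate, so the levels of the other genes in the 2 kinds are given as a description. A gene was counted as apart where its level, in UMIs per 1000000 UMIs of the kind (CPM), differed by at least 4-fold in each library. Of 5772 genes with enough UMIs, 232 (4.02%) were higher in Slc47a1 nuclei and 199 (3.45%) in Slc6a13 nuclei, and 22 and 8 of these had no UMI in the other kind. These numbers include the genes that draw the split, Slc47a1 and Slc6a13. Without members of 5% or more mitochondrial UMIs, 152 genes were higher in Slc47a1 nuclei. Of 19 solute carriers tested, 8 were higher in Slc47a1 nuclei and 10 in Slc6a13 nuclei, the gene that draws the split included on each side. Mitochondrial UMIs differed as well, with medians of 3.41% and 5.53% in Slc47a1 nuclei of vehicle and OLE, and 1.71% and 2.37% in Slc6a13 nuclei.

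Slc6a13 nuclei carried importers of amino acids and organic anions. Slc6a20a, a proline and imino acid transporter, was at 2980.1 and 3089 CPM in vehicle and OLE, against 15.1 and 0 in Slc47a1 nuclei, 434-fold (interval 186 to 1339) apart. Slc7a11, the cystine and glutamate exchanger, was at 3421 and 2936 against 12.1 and 7.77, 327-fold (interval 159 to 816). Both genes were all but absent from Slc47a1 nuclei of either library. The sulfate carrier Slc13a4 was at 489.8 and 739 against 3.03 and 7.77, and the dicarboxylate carrier Slc13a3 was 59.5-fold (interval 26.9 to 164) higher. Slc22a6 and Slc22a8, the organic anion transporters OAT1 and OAT3, were at 226 and 383 and at 362 and 419, against 3.03 and 5.18 and 12.1 and 10.4. The monocarboxylate family member Slc16a12 had 130 UMIs in Slc6a13 nuclei and none in Slc47a1 nuclei, at least 63.7-fold by a floor of 3 UMIs over both libraries.

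Of 18 basement membrane and matrix glycoprotein genes tested, 3 were higher in Slc6a13 nuclei and 2 in Slc47a1 nuclei, where 3.45% and 4.02% of all genes were. The list's median log2 ratio of Slc47a1 over Slc6a13 nuclei was 0.39, against −0.060 over all genes. The genes given next were picked after their values were seen. In Slc6a13 nuclei laminin alpha 1 (Lama1) was at 689 and 698 CPM in vehicle and OLE, and it had no UMI in Slc47a1 nuclei, at least 166-fold. The type IV collagen chains Col4a5 and Col4a6, which are neighbours on the X chromosome, were 64.1-fold (interval 27.0 to 199) and 398-fold (interval 70.9 to 15785) higher, the latter over 1 UMI in Slc47a1 nuclei. Aldh1a2, which makes retinoic acid, was at 445 and 459 against 0 and 2.59. Ptgds, the prostaglandin D2 synthase of the meninges, was at 7482 and 12898 against 481 and 464, 21.1-fold (interval 18.9 to 23.6). The lipoprotein gene Apoe was at 1643 and 3585 against 188 and 565. Lef1 of the Wnt pathway (75 UMIs) and the chloride channel Cftr (45 UMIs, in 10 nuclei) had none in Slc47a1 nuclei. Bmp6 was 5.18-fold (interval 4.59 to 5.85) higher.

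Astrocyte markers moved with this side in part. The 10 astrocyte genes took 0.526% and 0.312% of UMIs in Slc6a13 nuclei of vehicle and OLE, and 0.169% and 0.223% in Slc47a1 nuclei. Mural genes took 0.0791% and 0.137% against 0.0118% and 0.00674%, and of the 15 members that also passed the endothelial-mural gate 14 were Slc6a13 nuclei. Their part in the differences was not tested. Without members that passed another gate, 172 genes were higher in Slc6a13 nuclei and 236 in Slc47a1 nuclei.

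Slc47a1 nuclei carried another set of carriers. The sodium-coupled bicarbonate transporter Slc4a10 was at 6023 and 6077 CPM in vehicle and OLE, against 147 and 108 in Slc6a13 nuclei, 46.8-fold (interval 36.5 to 61.1) apart. The anion exchanger Slc26a7 was at 720.4 and 847 against 3.77 and 4.50, and the sulfate transporter Slc26a2 at 820.2 and 889 against 3.77 and 18.0. Slc38a2, a neutral amino acid transporter, was at 3154 and 3941 against 305 and 531, 8.77-fold (interval 7.59 to 10.2). A second extruder, Slc47a2, had 175 UMIs in Slc47a1 nuclei and 1 in Slc6a13 nuclei, 119-fold (interval 21.1 to 4731). The efflux pump Abcb1a (P-glycoprotein) was 68.3-fold (interval 23.1 to 333) higher, over 3 UMIs in Slc6a13 nuclei.

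Their matrix differed too. Matrix Gla protein (Mgp), an inhibitor of calcification, was at 1374 and 4169 CPM in vehicle and OLE, against 18.8 and 36.0. The transmembrane collagen Col25a1 was at 3799 and 2829.7 against 151 and 40.5, and the short-chain collagen Col8a1 at 415 and 381 with no UMI in Slc6a13 nuclei, at least 64.4-fold. Fibronectin (Fn1) was at 469 and 923 against 64.0 and 36.0. Of 18 collagens, 6 were higher here (Col6a1, Col6a2, Col8a1, Col8a2, Col12a1 and Col25a1) and 4 in Slc6a13 nuclei (Col4a5, Col4a6, Col13a1 and Col26a1). Over all genes these shares were 4.02% and 3.45%. The Wnt enhancer Rspo3 was at 1059 and 1042 against 15.1 and 0, and the forkhead factor Foxp2 at 2555 and 2454 against 414 and 319.8. Butyrylcholinesterase (Bche, 513 UMIs), the protease Tll1 (311), the Hedgehog-binding protein Hhip (208), the protease Htra3 (150) and the potassium channel Kcnk5 (145) had no UMI in Slc6a13 nuclei, at least 32.9-fold higher for Kcnk5 and at least 116-fold for Bche. Cdh1 (E-cadherin), of the arachnoid barrier list, was 10.5-fold (interval 6.12 to 19.5) higher.

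Of 16 mesenchymal transcription factors tested, 2 were apart, both toward Slc47a1 nuclei and Foxp2 among them, where 4.02% of all genes were, and none was apart toward Slc6a13 nuclei, where 3.45% were. Over both libraries Foxc1, a factor needed to form the meninges, was at 142 in Slc47a1 and 158 in Slc6a13 nuclei (CPM), 1.11-fold (interval 0.814 to 1.51). Prrx1 was at 184 in Slc47a1 and 154 in Slc6a13 nuclei, and Zic4 at 345 in Slc47a1 and 515 in Slc6a13 nuclei. Foxd1 was at 497 in Slc47a1 and 265 in Slc6a13 nuclei, 1.88-fold (interval 1.53 to 2.32). Bnc2 itself was 5.83-fold (interval 5.16 to 6.60) higher in Slc47a1 nuclei but under 4-fold in OLE, where it was at 2887 and 734. Laminin alpha 2 (Lama2) was at 995 in Slc47a1 and 1428 in Slc6a13 nuclei, and the TGF-beta co-receptor Tgfbr3 at 747 in Slc47a1 and 730.3 in Slc6a13 nuclei.

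**Figure D2:**
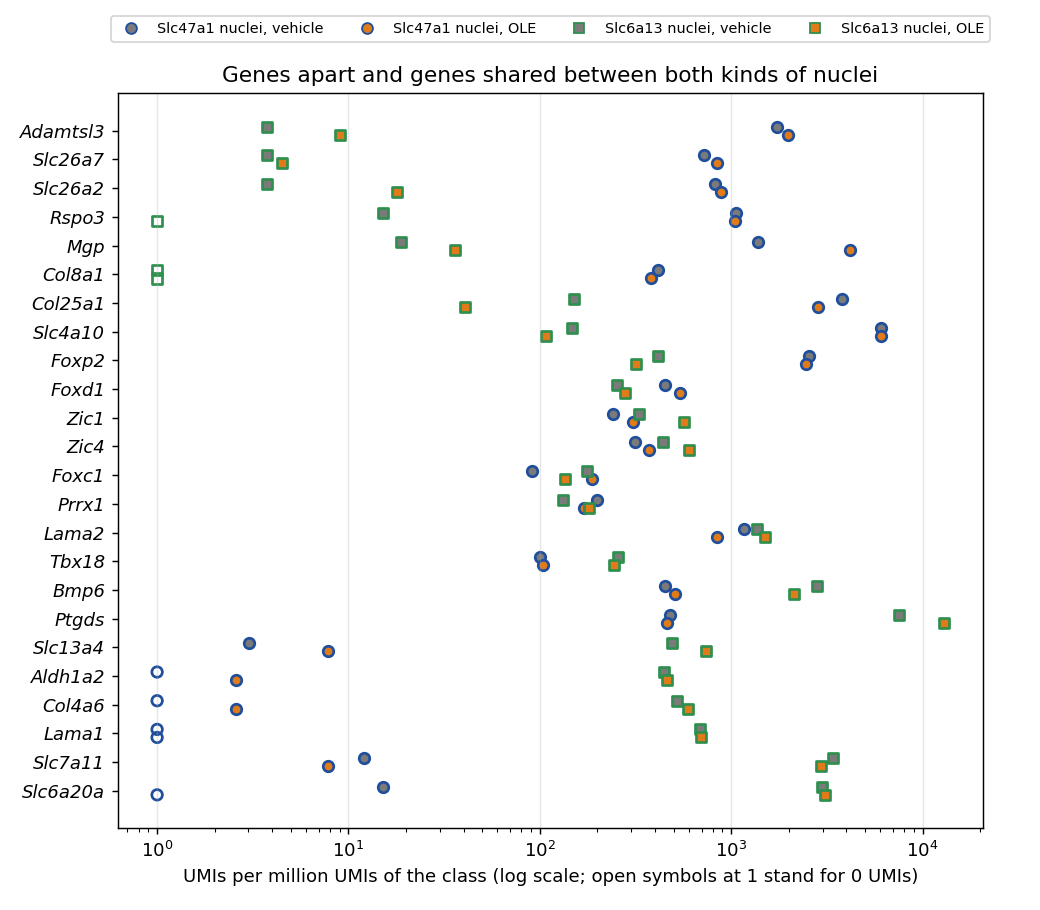
Levels of 24 genes (log axis, CPM) in Slc47a1 nuclei (circles, blue edge) and Slc6a13 nuclei (squares, green edge) of vehicle (grey) and OLE (orange), with open symbols at 1 where no UMI was found. Genes from Adamtsl3 to Foxp2 lie higher in Slc47a1 nuclei and those from Bmp6 down in Slc6a13 nuclei. The genes from Foxd1 to Tbx18 lie closer together, and the points of both libraries lie close for most genes.

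Pooled over both libraries, the 14 nuclei with neither gene held a small set of high genes. Dpp4, a peptidase found on the arachnoid barrier, was at 826 CPM in these nuclei, 16.8 in Slc47a1 nuclei and 65.6 in Slc6a13 nuclei. Dapl1 was at 427 CPM in these nuclei, 15.4 in Slc47a1 nuclei and 8.21 in Slc6a13 nuclei, and the endocytic receptor cubilin (Cubn) at 499 CPM in these nuclei, 4.19 in Slc47a1 nuclei and 26.7 in Slc6a13 nuclei. These 14 nuclei thus gave 52.7% of the Dpp4, 61.2% of the Dapl1 and 63.6% of the Cubn UMIs of all members. Cdh1 was at 613 CPM in these nuclei, 302 in Slc47a1 nuclei and 28.7 in Slc6a13 nuclei, and the tight junction gene Cldn11 at 698 CPM in these nuclei, 197 in Slc47a1 nuclei and 39.0 in Slc6a13 nuclei. The keratin genes Krt8 and Krt18, also on the barrier list, had 0 UMIs in them. Of 10 genes of the barrier list tested between the kinds, 4 were higher in Slc47a1 nuclei (Slc47a1 itself, Cdh1, Abcg2 and Abcb1a) and 1 in Slc6a13 nuclei (Aldh1a2). Over all genes these shares were 4.02% and 3.45%. The label thus covers nuclei with genes of the arachnoid barrier. Of 6 genes tested on a list of dural fibroblasts, 4 were also higher in Slc47a1 nuclei and 1 in Slc6a13 nuclei. Whether the Slc47a1 nuclei and these 14 are vascular leptomeningeal, arachnoid barrier or dural cells was not tested.

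These levels rested on few nuclei of mostly 1 library. Cdh1 had 43 UMIs in 6 of the 10 OLE nuclei and 0 in the 4 vehicle nuclei, and Dpp4 had 50 UMIs in 6 OLE nuclei and 8 in 3 vehicle nuclei. All 4 vehicle nuclei had the gate gene Ranbp3l, at 1414 CPM, and 3 had Lama1, at 687 CPM. Slc6a13 nuclei had these genes at 3366 and 693 CPM, and the 10 OLE nuclei at 264 and 88.0 CPM. The 14 nuclei were thus unlike between the libraries. Their median depth was 5491 UMIs in vehicle and 3824 in OLE. Mitochondrial UMIs reached 5% or more in 0 of the 4 from vehicle and 5 of the 10 from OLE. Those from OLE included nuclei of only 967, 1029 and 1098 UMIs. An OLE nucleus of 1084 UMIs, counted as an Slc6a13 nucleus, held 1 UMI of that gene. At such depth either gene can be missed, so finding neither says little about the kind of nucleus. Among all members, Cdh1, Dpp4, Cldn11 and Dapl1 were all found in 2 nuclei in vehicle and 9 in OLE, 6 of the latter with neither Slc47a1 nor Slc6a13. At least 2 of the 4 genes were found in 26 and 27 members.

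Against all other barcodes the members were led by regulators of mesenchyme. As the gate chose the nuclei, these ratios are descriptive. Prdm6, a PR domain factor, had the highest ratio outside the gate genes, at 667 and 529.6 CPM in vehicle and OLE members against 1.62 and 1.38 in the other barcodes, 398-fold. Eya2, a co-activator of homeobox factors, was at 944 and 901 against 2.22 and 3.89, and was found in 90.1% and 88.8% of members. The bone morphogenetic proteins Bmp6 and Bmp4 were 232-fold and 147-fold above the rest. Among the 25 leading genes were the factors Zic4, Foxd1, Tbx15 and Tbx18, with Zic4 215-fold and Foxd1 199-fold above.

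Some leading genes were shared with the other cells of the vessel. Against nuclei gated as endothelial or mural (24 in vehicle, 55 in OLE), Prdm6 was 237-fold higher and Bmp6 236-fold. These folds rest on 1 UMI of Prdm6 and 2 UMIs of Bmp6 in the endothelial or mural nuclei, so their size is uncertain. Tbx18, a factor of mural cells too, was only 3.04-fold higher, Zic4 3.16-fold, the aminopeptidase Anpep 2.62-fold and Slc6a20a 2.57-fold. Over astrocytes (136 and 161 nuclei) Zic4 was 137-fold, over 6 UMIs, and Bmp6 29.4-fold higher. Kcnk5 had no UMI in the nuclei of either gate.

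**Figure D3:**
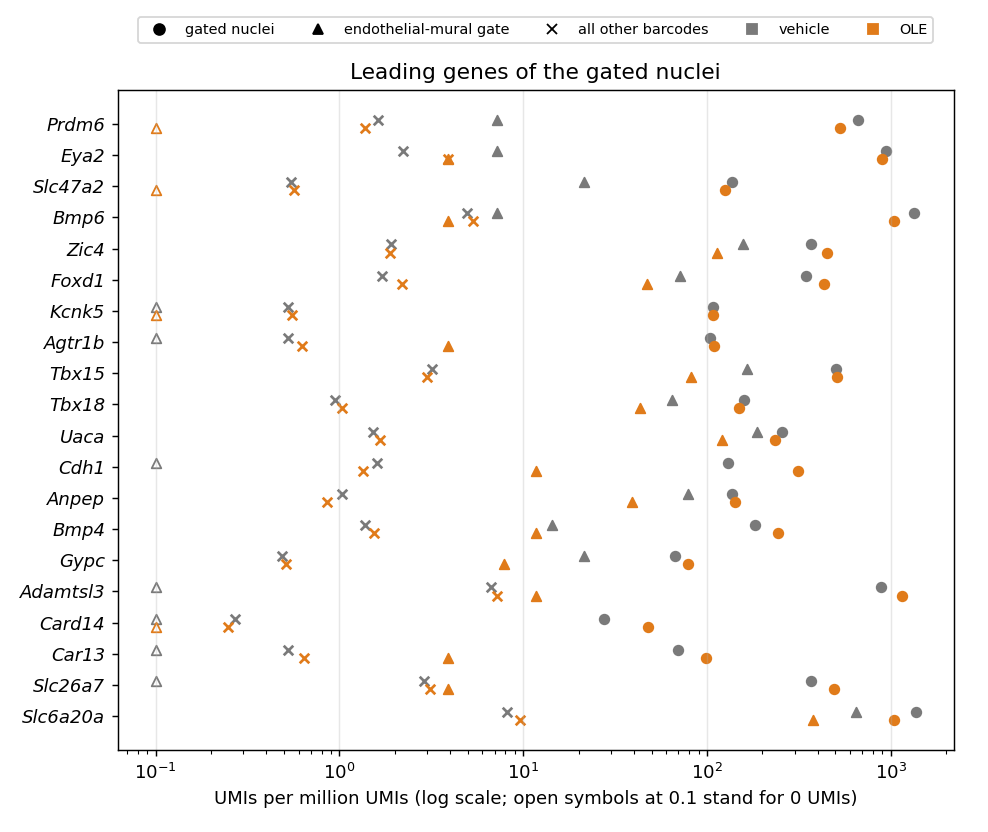
Levels (log axis, CPM) of 20 leading genes in gated nuclei (circles), endothelial-mural nuclei (triangles) and all other barcodes (crosses) of vehicle (grey) and OLE (orange), with open symbols at 0.1 for no UMI. Circles lie far right of the crosses for every gene plotted, while triangles approach the circles for Uaca, Anpep, Tbx18, Zic4 and Slc6a20a.

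Gene lists were set against the rest in the same descriptive way. Genes entered where members held 40 or more UMIs of them, found in at least 10% of the members of each library. Of 6172 such genes, 455 (7.37%) were at least 10-fold above the rest in each library. Of the mesenchymal factors 14 of 16 tested were past this fold, of the solute carriers 14 of 19, of the basement membrane and matrix glycoproteins 14 of 18 and of the collagens 13 of 19. These counts include gate genes, which are high because they chose the nuclei. They are Bnc2 among the factors, Slc6a13 and Slc47a1 among the carriers and Col1a2 among the collagens. The filter worked through the members, so list genes that were low in them were left out. The full lists hold 26 factors, 25 carriers, 25 basement membrane and matrix glycoproteins and 25 collagens. Type I collagen Col1a1 was 70.9-fold above the rest and type III collagen Col3a1 40.5-fold, while Col4a1 and Col4a2, the chains of vessel basement membranes, were at 0.929 and 0.875 of the level of the rest. None of 14 amyloid and lipid genes and none of 14 ribosomal protein genes was past the fold.

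Genes of activated fibroblasts were uneven. Of 16 on the list, 7 were tested, among them Fn1, Col1a1 and the secreted phosphoprotein Spp1, with 110 UMIs in vehicle and 102 in OLE. Acta2, the actin of myofibroblasts, had 1 UMI in all members, and Postn and Lox had 9 each. The complement genes C3, C1ra and C1s1 had 0, 5 and 2 UMIs, and the chemokine genes Ccl11 and Cxcl1 had 0. Pm20d1, the enzyme that makes and cleaves N-acyl amino acids such as OLE, had 9 UMIs in vehicle and 5 in OLE. The microglial genes C1qa (9 and 8 UMIs) and Trem2 (6 and 6) and the myelin gene Mal (23 and 13) were low.

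The shares of these nuclei in OLE and vehicle lay within each other's intervals. Members made up 1.35% of barcodes in vehicle (interval 1.09 to 1.65) and 1.44% in OLE (1.16 to 1.77). The difference of 0.0926 percentage points had an interval of −0.323 to 0.513. The median depth of all barcodes was 3989 UMIs in vehicle and 6392 in OLE, and fewer nuclei caught cannot be told apart from fewer cells.

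The ends of the range of OLE to vehicle ratios often rested on single nuclei. Levels are in CPM of the members' UMIs, and log2 ratios are of OLE over vehicle. Of 6227 genes that had 40 or more UMIs in the 2 libraries together and were found in 10 members or more, 272 (4.37%) were at least 2-fold higher in OLE and 129 (2.07%) at least 2-fold lower, and the median log2 ratio was −0.01. Ratios were above 0 for 3062 of these genes and below 0 for 3165. Without the barcodes in the top 5% of doublet scores, 75 genes were lower. The highest ratios were those of Tmed3, a carrier of secretory cargo, with 6 UMIs in vehicle and 36 in OLE (log2 2.62, 1.36 to 4.16), and of Bst2, an interferon-induced gene, with 9 UMIs in vehicle and 54 in OLE. The next were Coch, 1500015O10Rik, Slc7a14, Hspb1, Eif5a and Smpdl3a. Of these genes only Slc7a14 was above the minimum without members of 5% or more mitochondrial UMIs, at 2.84. It had 19 UMIs in vehicle and 84 in OLE, and 73 of the latter lay in 6 nuclei with neither Slc47a1 nor Slc6a13, while its log2 ratio was −2.22 in Slc47a1 nuclei (4 and 1 UMIs) and 0.065 in Slc6a13 nuclei. In OLE 1 nucleus gave 69.2% of the Coch, 52.1% of the Hspb1 and 42.6% of the Bst2 UMIs, but only 21.7% of the Smpdl3a UMIs, a gene of a lysosomal phosphodiesterase family (12 UMIs in vehicle and 46 in OLE).

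At the low end were Prr5l, St18, Luzp2, Vwc2l, Kirrel3, Rorb, Eps8 and Adamts15. Prr5l and St18 are on the list of oligodendrocyte markers and Rorb on that of astrocyte markers. The oligodendrocyte list took 0.0475% of the members' UMIs in vehicle and 0.0231% in OLE. Its highest share in 1 nucleus was 0.952% in vehicle and 0.139% in OLE. Whether UMIs of other cells lowered these ratios was not tested. A single vehicle nucleus gave 52.9% of the Prr5l, 59.5% of the St18 and 70% of the Vwc2l UMIs. Kirrel3, a synaptic adhesion gene of which 1 vehicle nucleus gave 33.2% of the vehicle UMIs, had 187 UMIs in vehicle and 48 in OLE in 52 and 29 nuclei (log2 −1.92, −2.41 to −1.46). The protease gene Adamts15 had 33 UMIs in vehicle and 9 in OLE, in 20 and 7 nuclei (log2 −1.84, −3.08 to −0.74).

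Ribosomal protein and ER folding genes were higher in OLE as lists. All 14 ribosomal protein genes tested had ratios above 0, and 12 were at least 2-fold higher, with a list median of 1.30 on the log2 scale. Rplp0 was at 56.7 CPM in vehicle and 222 in OLE (39 UMIs in vehicle and 149 in OLE), a log2 ratio of 1.97 (1.46 to 2.52). All 15 ER folding genes were above 0, and 7 were at least 2-fold higher, with a median of 0.98. Hspa5 (BiP), the main chaperone of the ER, was at 182 CPM in vehicle and 483 in OLE (125 UMIs in vehicle and 324 in OLE), log2 1.41 (1.11 to 1.72). Calreticulin (Calr) was at 167 CPM in vehicle and 407 in OLE, log2 1.29 (0.97 to 1.61). Without members of 5% or more mitochondrial UMIs Calr was at 0.18, and Rplp0 fell under the minimum. The calcium pump Atp2a2 was the lowest of the list, at 195 CPM in vehicle and 215 in OLE, log2 0.14 (−0.21 to 0.49).

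These lists moved with mitochondrial UMIs and with single deep nuclei. Members with 5% or more mitochondrial UMIs held 31.3% of the members' UMIs in vehicle and 48.3% in OLE. In them the ribosomal list was at 2371 CPM in vehicle and 4663 in OLE, against 464.9 and 767.8 in the other members, and the ER list at 2901 and 5682 against 1262 and 1564. Without these members, 77 of 4286 genes (1.8%) were at least 2-fold higher in OLE and 121 (2.82%) lower, and the medians were 0.41 for the 5 ribosomal genes left above the minimum and 0.42 for 11 ER genes. Hspa5 then had a log2 ratio of −0.16 and Hsp90ab1 of −0.12. The deepest OLE nucleus alone, of 50738 UMIs and 16.0% mitochondrial, gave 49.1% of the Hspa5 and 31.9% of the ribosomal list UMIs, and without the deepest nucleus of each library the ribosomal and ER medians were 1.07 and 0.61. Their part in the difference was not tested.

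**Figure D4:**
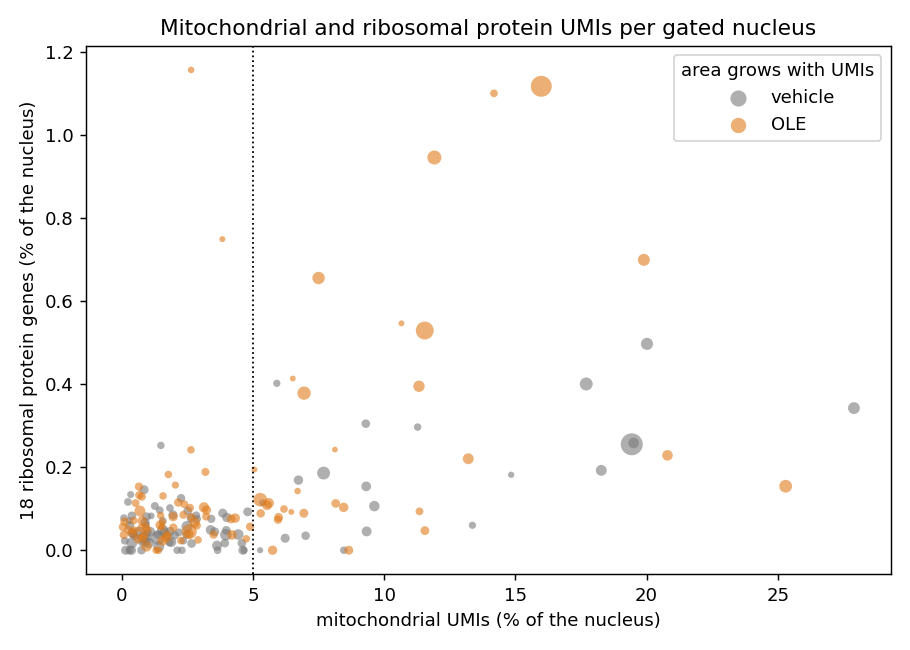
Each point is 1 gated nucleus, placed by the share of its UMIs from mitochondrial genes (horizontal, %) and from 18 ribosomal protein genes (vertical, %), with area growing with its UMIs, grey for vehicle and orange for OLE, and a dotted line at 5%. Most nuclei above 0.3% on the vertical axis lie right of the line, and most of these are OLE nuclei.

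These values were also taken within each kind of nucleus. In Slc47a1 nuclei, 19 of 37 in OLE and 12 of 39 in vehicle had 5% or more mitochondrial UMIs, and the ER median was 1.25 and the ribosomal median 1.53. In Slc6a13 nuclei, with 6 of 41 and 7 of 45 such nuclei, the ER median was 0.23. Genes at least 2-fold higher in OLE were 285 of 3726 (7.65%) in Slc47a1 nuclei and 53 of 2623 (2.02%) in Slc6a13 nuclei, and genes 2-fold lower 123 (3.3%) and 122 (4.65%). The difference between the kinds was not tested.

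Cst3, Itm2b and Apoe, on the list of amyloid and lipid genes, were higher in OLE with and without each of these sets of nuclei. Of the 14 genes of the list tested, 13 had ratios above 0 and 5 were at least 2-fold higher, with a median of 0.74, and 0.45 without members of 5% or more mitochondrial UMIs. Cystatin C (Cst3), a secreted protease inhibitor, was at 395 CPM in vehicle and 980.2 in OLE (272 UMIs in vehicle and 657 in OLE), log2 1.31 (1.10 to 1.52). Itm2b, a membrane protein that binds APP, was at 307 CPM in vehicle and 685 in OLE, log2 1.16 (0.92 to 1.40). Apoe was at 1081 CPM in vehicle and 1693 in OLE (744 UMIs in vehicle and 1135 in OLE), log2 0.65 (0.51 to 0.78). Within Slc47a1 and Slc6a13 nuclei the log2 ratios of Apoe were 1.59 and 1.13, of Cst3 1.39 and 1.14, and of Itm2b 1.37 and 1.05. Without members of 5% or more mitochondrial UMIs they were 0.97, 0.43 and 0.86. Without the deepest nucleus of each library they were 1.16, 1.13 and 1.26. The deepest vehicle nucleus, whose barcode was also among the OLE members, gave 31.7% of the vehicle Apoe UMIs. App itself had 323 UMIs in vehicle and 315 in OLE, a log2 ratio of 0.0023 (−0.23 to 0.23), and −0.27 without members of 5% or more mitochondrial UMIs.

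Hsd17b4 of peroxisomal fat oxidation had 60 UMIs in vehicle and 107 in OLE (log2 0.87, 0.40 to 1.35), and Slc3a2, the heavy chain of the large neutral amino acid transporters, 60 UMIs in vehicle and 94 in OLE (log2 0.69, 0.20 to 1.18). Both had ratios above 0 without members of 5% or more mitochondrial UMIs, at 0.58 and 0.86.

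Matrix genes were mixed. Collagens had a median log2 ratio of 0.04, with 11 of 19 above 0, beside 3062 of 6227 over all genes. Only Col6a2 was at least 2-fold higher, at 95.9 CPM in vehicle and 209 in OLE (log2 1.12, 0.69 to 1.57). Col6a2 was under 2-fold without members of 5% or more mitochondrial UMIs, at 0.66, and without the deepest nucleus of each library, at 0.95. Basement membrane and matrix glycoproteins had a median of 0.37, with 14 of 18 above 0 and 4 at least 2-fold higher. Of these, Mgp was at 751 CPM in vehicle and 2454 in OLE (517 UMIs in vehicle and 1645 in OLE), log2 1.71 (1.56 to 1.85), and 0.76 without members of 5% or more mitochondrial UMIs, and 1 OLE nucleus gave 32.3% of its UMIs. Fn1 was at 319.6 CPM in vehicle and 709 in OLE (log2 1.15, 0.92 to 1.39) and laminin beta 2 (Lamb2) at 78.4 CPM in vehicle and 189 in OLE (log2 1.27, 0.80 to 1.76), and these kept ratios of 1.14 and 1.39. In contrast, Lama2 had 837 UMIs in vehicle and 727 in OLE (log2 −0.16, −0.31 to −0.020). The higher level of Fn1 did not hold in Slc6a13 nuclei, which had 25 of its UMIs over both libraries and a lower level in OLE. The nuclei with neither Slc47a1 nor Slc6a13 gave 12 of 220 Fn1 UMIs in vehicle and 95 of 475 in OLE.

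MHC class I genes, which present peptides to T cells, were higher. H2-D1 had 36 UMIs in vehicle and 116 in OLE (log2 1.73, 1.18 to 2.31), H2-K1 had 43 UMIs in vehicle and 106 in OLE (log2 1.34, 0.82 to 1.89), and their partner B2m had 39 UMIs in vehicle and 86 in OLE (log2 1.18, 0.62 to 1.76). Without members of 5% or more mitochondrial UMIs, H2-D1 was at 0.63 and H2-K1 at 1.16, and B2m fell under the minimum. Reads of H2-D1 and H2-K1 can be shared between these near-identical genes, so their split is uncertain. In the whole list of complement and immune genes 8 of 10 were above 0 and 3 at least 2-fold higher, beside 3062 and 272 of 6227 over all genes.

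Solute carriers and transcription factors had medians near 0. The 19 carriers had a median log2 ratio of 0.09 and the 16 factors of 0.08, and 1 carrier and no factor was past 2-fold. That carrier was Slc6a12, the betaine and GABA transporter, with 47 UMIs in vehicle and 16 in OLE (log2 −1.52, −2.43 to −0.67), −1.10 without members of 5% or more mitochondrial UMIs and −1.29 in Slc6a13 nuclei. Slc7a11 was at 1366 CPM in vehicle and 1001 in OLE (log2 −0.45, −0.59 to −0.30) and Slc47a1 at 848 CPM in vehicle and 868 in OLE (log2 0.033, −0.13 to 0.20). Among retinoid genes the retinoic acid hydroxylase Cyp26b1 had 31 UMIs in vehicle and 11 in OLE (log2 −1.46, −2.60 to −0.42), and Aldh1a2 had 127 UMIs in vehicle and 110 in OLE (log2 −0.17, −0.55 to 0.21). Cemip, which breaks down hyaluronan, had 215 UMIs in vehicle and 104 in OLE (log2 −1.01, −1.36 to −0.66). Without members of 5% or more mitochondrial UMIs Cemip was under 2-fold at −0.63, Slc47a1 was at −0.32 and Aldh1a2 at 0.28.

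The ratio of Ptgds changed direction with the nuclei counted. Slc47a1 nuclei held 330388 UMIs in vehicle and 385903 in OLE, and Slc6a13 nuclei 265432 and 222047. Ptgds was at 6383 CPM in vehicle and 5978 in OLE over all members (log2 −0.095, −0.16 to −0.032), but within Slc6a13 nuclei its log2 ratio was 0.79 (0.70 to 0.87). The deepest vehicle nucleus, which held Slc47a1 as well, gave 48.0% of the vehicle Ptgds UMIs, and without the deepest nucleus of each library the ratio was 0.84. The arachnoid barrier list had a median of 0.65, with 4 of 11 genes at least 2-fold higher. Of these, Cdh1 had 90 UMIs in vehicle and 209 in OLE (log2 1.25, 0.89 to 1.63) and Cldn11 74 UMIs in vehicle and 146 in OLE (log2 1.02, 0.61 to 1.44), and OLE also held 10 of the 14 nuclei with neither Slc47a1 nor Slc6a13. Without members of 5% or more mitochondrial UMIs the median of the 8 genes left was 0.29, Cdh1 and Cldn11 were under 2-fold at 0.89 and 0.76, and Abcb1a went from 0.65 to −0.18.

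**Figure D5:**
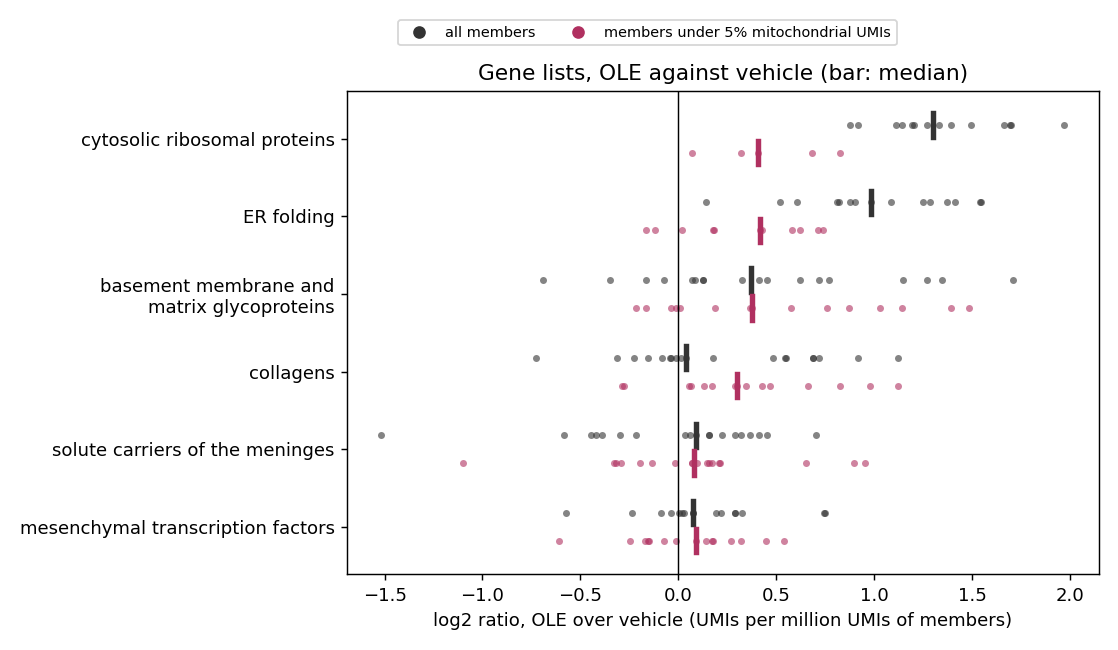
Log2 ratios of OLE over vehicle (horizontal) for the genes of 6 lists, each point 1 gene and each bar the list's median, for all members (dark) and for members under 5% mitochondrial UMIs (red). The ribosomal and ER medians lie at 1.30 and 0.98 for all members and at 0.41 and 0.42 under 5%, while carriers and transcription factors lie near 0 in both.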

How the data were processed

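Nuclei were isolated by the authors from frozen entorhinal cortex, with 5 mice pooled per library, and sequenced with 10X 3′ chemistry. Cell Ranger 3.0.1 is named in the methods and 3.0.2 in the file headers, and reads were aligned to the mm10 pre-mRNA reference, so that introns were counted. The authors deposited whole-number UMI counts of 31053 genes for each barcode, without normalization. Reads in introns and at internal priming sites favour long genes, so levels were compared within a gene and not between genes. The authors state that doublets were removed in Seurat 4.0.4 without naming a caller.

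All values were computed from these counts in Python (3.11.15) with scipy (1.17.1), numpy (2.4.6), matplotlib (3.10.9) and pandas (2.3.3). UMIs of members were summed per library and scaled to 1000000 UMIs (CPM), and OLE was set over vehicle as a log2 ratio with no pseudocount. Log2 ratios and shares have exact binomial (Clopper-Pearson) intervals at 95%, and the interval of a difference of shares combines those of both shares. A gene was compared where both libraries together held 40 or more UMIs of it, in 10 or more members. Against the other barcodes it had instead to be found in at least 10% of the members of each library. For a kind of nucleus with no UMI of a gene, the fold is a lower bound from 3 UMIs over both libraries. Doublets were kept, and Scrublet in scanpy 1.11.5 was run as an alternative. Its automatic threshold called 0.119% and 0.113% of barcodes, too few to have worked, so the top 5% of scores were left out instead. Endothelial or mural nuclei were gated on 11 genes and astrocytes on 6, and glutamatergic nuclei had at least 4 UMIs of Slc17a7. Genes named are the gate genes, the 25 highest ratios of members to other barcodes, the 8 highest and 8 lowest ratios of OLE to vehicle, the genes the study names for its nuclei, and genes of the lists described, with genes apart between the 2 kinds named after their values were seen. The members, lists and tests were chosen with earlier results of these data known. Of 31053 identifiers, 30934 (99.6%) had a position in GENCODE vM21 (GRCm38). Some genes of these lists and rules are not reported here. The calculations were first tested on simulated counts with known folds.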

Additional observations from a re-analysis of the deposited data

Results flagged for a closer look

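The gate gene Bnc2 went in opposite directions in the 2 kinds of nuclei. Its log2 ratio of OLE over vehicle was −0.54 in Slc47a1 nuclei (−0.66 to −0.43, 1387 and 1114 UMIs in vehicle and OLE) and 0.59 in Slc6a13 nuclei (0.25 to 0.94, 129 and 163 UMIs), with intervals that cover counting error only. With 1 library per condition the difference was not tested, and Bnc2 helped to choose the nuclei.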

How the results depend on the processing

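Members with 5% or more mitochondrial UMIs and depth moved several results. Without those members, OLE kept 58 nuclei, 77 genes were 2-fold higher, the ER median was 0.42, the ribosomal median 0.41 and 152 genes were higher in Slc47a1 nuclei. The stricter gate kept 60 and 55 members, with 56 genes 2-fold lower and a ribosomal median of 1.09. Without the top 5% of doublet scores 75 genes were 2-fold lower. Without the deepest nucleus the ER and ribosomal medians were 0.61 and 1.07, and with each member weighing the same 0.57 and 1.07. In Slc6a13 nuclei alone the ER median was 0.23. Thinned to 1000 UMIs, 19 genes were 2-fold higher and 27 lower, the matrix glycoprotein median was 1.11 and the transcription factor median −0.20, and 57 and 49 genes were apart toward Slc47a1 and Slc6a13 nuclei. A minimum of 20 UMIs gave 544 genes 2-fold higher and 276 lower, a minimum of 80 UMIs 128 and 57, and a fold of 1.5 844 and 539. Against endothelial and mural nuclei 169 genes were 10-fold higher. Log2 ratios of named genes whose interval over all members lay on 1 side of 0 changed sign without members of 5% or more mitochondrial UMIs (Hsp90ab1 −0.12, Hspa5 −0.16, Foxd1 −0.0095, Adamtsl3 −0.23, Slc26a7 −0.20, Slc6a20a 0.15, Slc6a13 0.070, Fxyd5 −0.059, Col1a1 −0.29, Ptgds 0.83, Slc22a8 0.16, Lama1 0.0066, Abcb1a −0.18, Slc4a10 −0.29), in Slc6a13 nuclei alone (Hspa5 −0.26, Slc6a20a 0.052, Bnc2 0.59, Col1a1 −0.78, Ptgds 0.79, Slc22a8 0.21, Lama1 0.018, Lama2 0.15, Slc4a10 −0.44), in Slc47a1 nuclei alone (Bmp6 0.18), without the deepest nucleus (Ptgds 0.84), with each member weighing the same (Ptgds 0.65, Slc22a8 0.082, Slc4a10 −0.057), after thinning (Zic4 −0.21, Slc6a20a 0.28, Ptgds 0.82) and under the stricter gate (Lama1 0.18). The causes were not tested. Over all alternatives, 662 ratios of these and other named genes stayed within their counting interval over all members, 129 left it without such a change, and 32 changed sign in this way. Where the interval spanned 0, 23 of those that left it and 39 that stayed within it also changed sign, such as, without members of 5% or more mitochondrial UMIs, Slc47a1 (−0.32), App (−0.27), Aldh1a2 (0.28) and Spp1 (1.48). Leaving out members with over 1% neuronal UMIs removed none. The alternatives on mitochondrial UMIs, on other gates and on each kind of nucleus, and all those on the 2 kinds, were chosen after seeing the data. No paired analysis was possible because each condition had 1 library and the labels give no shared replicate numbers. With 1 library per condition, the spread between mice could not be measured, and a difference between libraries cannot be told apart from one in handling or depth.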

Other observations

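Growth factor genes also differed between the 2 kinds of nuclei. Of 23 tested, 7 were at least 4-fold higher in Slc6a13 nuclei in each library (Bmp6, Bmp7, Wnt5a, Igfbp2, Cxcl12, Pdgfra and Pdgfrb) and 2 in Slc47a1 nuclei (Igfbp5 and Igfbp6), against 3.45% and 4.02% of all genes. Over both libraries the PDGF receptor genes Pdgfra and Pdgfrb were at 236 CPM in Slc6a13 nuclei and 51.7 in Slc47a1 nuclei, and at 176 CPM in Slc6a13 nuclei and 40.5 in Slc47a1 nuclei. The chemokine Cxcl12 was at 113 CPM in Slc6a13 nuclei and 26.5 in Slc47a1 nuclei. Igfbp2, which binds insulin-like growth factors, was at 394 CPM in Slc6a13 nuclei and 64.2 in Slc47a1 nuclei, and Igfbp6 of the same family at 24.6 CPM in Slc6a13 nuclei and 371 in Slc47a1 nuclei. Of the 7 genes tested on a list of pial and perivascular fibroblasts, 3 were higher in Slc6a13 nuclei (Lama1, Cyp1b1 and Cemip) and none in Slc47a1 nuclei. Of 6 tested on a list of dural fibroblasts, 4 were higher in Slc47a1 nuclei (Mgp, Fxyd5 and Smoc2 among them) and 1 in Slc6a13 nuclei (Fmod). Beside both lists, 4.02% of all genes were higher in Slc47a1 nuclei and 3.45% in Slc6a13 nuclei. Small proteoglycans were split, with Bgn higher in Slc47a1 nuclei and Dcn and Fmod in Slc6a13 nuclei. Of these, Dcn is a gate gene and helped to choose the nuclei. Between OLE and vehicle, the growth factor list had a median log2 ratio of 0.13, with Igfbp6 at 90 UMIs in vehicle and 227 in OLE, log2 1.37 (1.01 to 1.74), the 1 gene at least 2-fold higher, and 0.65 without members of 5% or more mitochondrial UMIs.

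The antigen presentation gene Cd74, whose protein is best known from macrophages and dendritic cells, had 214 UMIs in 39 of the 76 Slc47a1 nuclei and 1 UMI in Slc6a13 nuclei. All barcodes outside the gate held 0.00118% and 0.00135% of their UMIs in a list of 8 border macrophage genes, in vehicle and OLE. Of these 8 genes only Ms4a7 was at 0 in all members. The list took 0.000908% and 0.00207% of the UMIs of Slc47a1 nuclei in vehicle and OLE, and the source of the Cd74 UMIs was not tested. One OLE nucleus gave 41.0% of the Cd74 UMIs there.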
